A study of Mus musculus with 16 samples.

Results

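The light polysome comparison sets hepatocyte messages that carried 2 to 4 ribosomes in DDC-fed mice against the same sucrose gradient fraction of chow-fed mice. It uses 4 of the 16 libraries of the series. The DDC group holds 2 light polysome libraries from FVB mice fed DDC for 4 weeks, prepared from the material named B and C in the labels. The chow group holds 2 light polysome libraries from normal-fed FVB mice, prepared from the material named CH1_CH2 and CH3_CH4. All cells were isolated hepatocytes kept in cycloheximide, which arrests elongating ribosomes on their messages, and all RNA was selected for poly(A) tails. The other 12 libraries are cytoplasmic RNA, monosomes and heavy polysomes of the same diets, 2 for each diet and pool. The labels give neither the sex nor the number of animals in a preparation and do not state that libraries came from separate animals, so p-values measure the spread between these libraries, which may be technical.

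DDC is a porphyrinogenic compound given in the diet to model cholestatic injury: it leads to inhibition of ferrochelatase, porphyrin plugs in bile ducts, a ductular reaction, and hepatocytes that swell and collect keratin and p62 in Mallory-Denk bodies. In a sucrose gradient, messages are separated by the number of ribosomes they carry. Short coding sequences with good initiation and longer messages with slow initiation both fall into the light polysome fraction. A level there is a share of that fraction's RNA, so it moves with the amount of the message and with its place in the gradient.

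Values are FPKM (fragments per kilobase of transcript, scaled to library size) summed over the transcripts of a gene, and differences are DDC minus chow on the log2(FPKM + 1) scale, which understates the change of low genes. Summed FPKM came to 617850 and 761690 in the DDC libraries, against 884454 and 842569 in the chow libraries. At least 1 FPKM was reached by 9592 and 9484 genes in DDC and by 8856 and 8866 genes in chow. Sequenced depth cannot be read from these values. Replicates had a Pearson correlation across genes of 0.964 in DDC and 0.975 in chow, and libraries of different diets of 0.829 to 0.843 (genes are not independent replicates). Xist RNA was at 0 in both DDC libraries and at 0.555 and 0 FPKM in chow, and the Y-linked Ddx3y at 1.52 and 0.83 FPKM in DDC and 0 and 2.43 FPKM in chow. The 4 chow libraries of replicate 1, from preparation CH1_CH2 or its cytoplasm CH1, shared this pattern in every RNA pool. Xist is transcribed in female and Ddx3y in male cells, so the chow replicates differed as libraries of different sex do, while both DDC libraries and chow replicate 2 were alike. Diet and this difference are partly mixed in the chow mean, above all for genes with sex-dependent liver expression such as the major urinary proteins and Cyp7b1. Calls, list counts and named genes were recomputed without these 4 libraries, called preparation CH1_CH2 below; 1864 of the 3487 calls remained, all with the same direction.

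A level of 1 FPKM was reached in 2 or more of the 4 libraries by 9869 genes, of which 9848 could be tested with limma. Higher levels in DDC were called for 1846 genes (18.7%) and lower levels for 1641 (16.7%), at a Benjamini-Hochberg adjusted p under 0.05. Among the called genes, 1434 were at least 2-fold higher and 1170 at least 2-fold lower, and 151 and 70 genes passed 8-fold. The median over all tested genes was -0.03. Without chow replicate 1 the counts were 1216 higher and 955 lower, and without chow replicate 2 they were 1142 and 960. Without the 4 chow libraries of preparation CH1_CH2, which leaves a lone chow library assumed to vary like the other groups, they were 1132 and 868. Scaling all libraries to equal totals moved the median of all genes to 0.23 and gave 2526 higher and 1020 lower genes, so a group's median is best read against that of all genes.

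**Figure D1:**
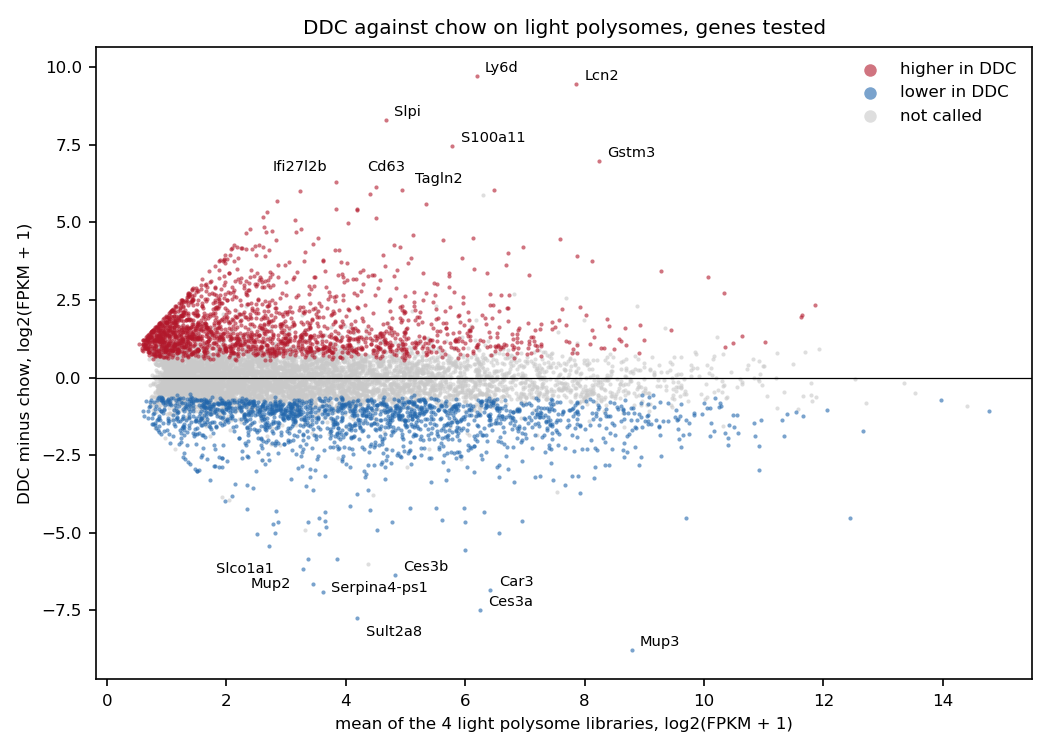
Each point is a gene tested on light polysomes, with its mean over the 4 libraries on the x axis and DDC minus chow on the y axis, both as log2(FPKM + 1). Red points (1846) are called higher and blue points (1641) lower in DDC, grey points are not called, and the 8 largest rises and 8 largest falls under the rule for named genes carry their symbols.

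The 15 largest rises were led by Ly6d, Lcn2, Slpi, S100a11 and Gstm3. Ly6d, a small GPI-anchored surface protein of the Ly6 family (chr15:74762056-74763620, minus strand, GRCm38), had 803 and 5618 FPKM in DDC, against 3.67 and 0.352 FPKM in chow. Its log2 difference was 9.72 ± 1.29 (SE, limma adjusted p = 0.000167). Lcn2, the siderophore-binding lipocalin secreted by injured hepatocytes and by neutrophils (chr2:32384633-32388252, minus strand), had 2715 and 13920 FPKM in DDC and 22.2 and 2.33 FPKM in chow. The difference was 9.449 ± 1.1423 (limma adjusted p = 8.98e-05). In both genes the groups lay far apart and the DDC replicates themselves differed several-fold, with replicate 2 the higher. Slpi, a secreted inhibitor of serine proteases, followed the same order, with 160.5 and 1273 FPKM in DDC against 0.735 and 0.187 FPKM in chow (8.30 ± 0.89, limma adjusted p = 4.23e-05).

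S100a11, a calcium-binding partner of annexins, stood at 520 and 1026 FPKM in DDC and at 4.47 and 2.14 FPKM in chow (7.46 ± 0.57, limma adjusted p = 4.59e-06). Gstm3, a glutathione S-transferase whose close copies share sequence so that its reads may be split among them, had 2772 and 4170 FPKM in DDC against 13.8 and 47.5 FPKM in chow (6.99 ± 0.69, limma adjusted p = 2.65e-05). B4galnt1, the ganglioside-forming N-acetylgalactosaminyltransferase, was the tightest of the leading rises, at 69.8 and 80.3 FPKM in DDC and 0.161 and 0.174 FPKM in chow (6.02 ± 0.30, limma adjusted p = 3.18e-07). The remaining 9 of the 15 leading rises were Ifi27l2b, Cd63, Tagln2, Lgals1, Mfge8, Mmp12, Anxa5, Gpx3 and Lgals3, with log2 differences between 5.42 and 6.32. Cd63 is a tetraspanin of late endosomes, Lgals1 and Lgals3 are galectins, Mmp12 is the macrophage elastase and Mfge8 bridges apoptotic cells to phagocytes. In bulk RNA, a larger share of a cell type such as macrophages and more RNA per cell cannot be told apart. Mmp12 reached 67.8 and 37.96 FPKM in DDC and 0.0213 and 0 FPKM in chow. Only 36.8% of the light polysome FPKM of Anxa5 lay on transcripts annotated as protein-coding. DDC and chow libraries did not overlap in any of the 15, which the rule for naming them required; over all tested genes both DDC libraries lay above both chow libraries in 35.6% and below them in 36.7%.

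**Figure D2:**
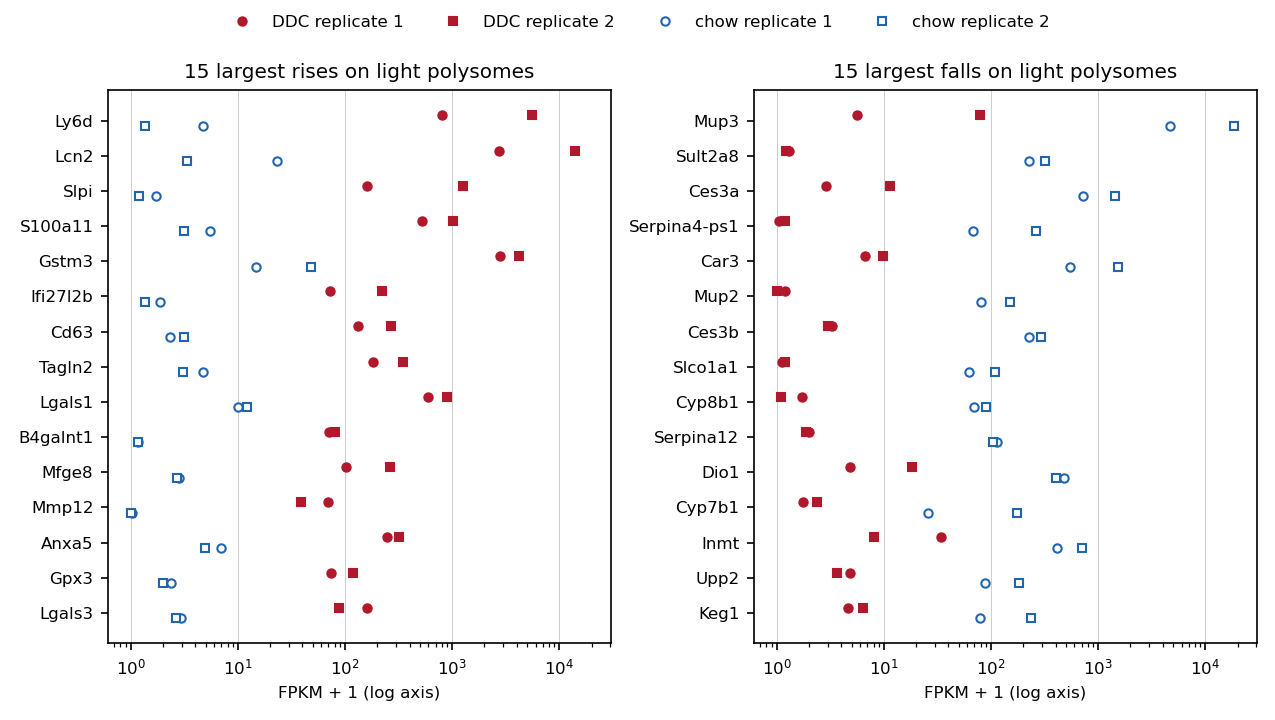
FPKM + 1 on a log axis in the 4 light polysome libraries, filled red for DDC and open blue for chow, circles for replicate 1 and squares for replicate 2. The 15 largest rises (left panel) and falls (right panel) have no overlap between the diets, and Ly6d, Lcn2, Mup3 and Ces3a differ several-fold between DDC replicates.

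The 15 largest falls were led by Mup3, Sult2a8, Ces3a, Serpina4-ps1 and Car3. Mup3, a major urinary protein that carries pheromones (chr4), had 4.57 and 78.3 FPKM in DDC against 4636 and 18580 FPKM in chow. Its log2 difference was -8.79 ± 1.59 (SE, limma adjusted p = 0.00126), and -9.79 without chow replicate 1. Sult2a8, a hepatic sulfotransferase of bile acids in mice, was down to 0.285 and 0.224 FPKM in DDC, against 224 and 315 FPKM in chow (-7.73 ± 0.51, limma adjusted p = 1.64e-06). Both DDC libraries were under 1 FPKM. Ces3a, a carboxylesterase of the liver endoplasmic reticulum, had 1.88 and 10.3 FPKM in DDC and 725 and 1434 FPKM in chow (-7.49 ± 0.76, limma adjusted p = 3.19e-05). Car3, the carbonic anhydrase abundant in liver, fat and muscle, had 5.61 and 8.75 FPKM in DDC against 544 and 1545 FPKM in chow (-6.84 ± 0.93, limma adjusted p = 0.000194).

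Serpina12, which encodes the secreted serpin vaspin, had the smallest error of the falls: 0.976 and 0.864 FPKM in DDC against 113 and 103 FPKM in chow (-5.83 ± 0.23, limma adjusted p = 1.81e-08). The other 10 of the 15 leading falls were Serpina4-ps1, Mup2, Ces3b, Slco1a1, Cyp8b1, Dio1, Cyp7b1, Inmt, Upp2 and Keg1, at -4.66 to -6.89. Dio1 is the deiodinase that activates thyroid hormone, with 3.83 and 17.3 FPKM in DDC and 482 and 399 FPKM in chow. The calls of Cyp7b1 and Inmt depended on a library. Cyp7b1, the oxysterol hydroxylase, was at 0.761 and 1.37 FPKM in DDC against 24.9 and 172 FPKM in chow, and its adjusted p became 0.0704 without chow replicate 2. Inmt, a methyltransferase, was at 33.0 and 7.09 FPKM in DDC against 408 and 704 FPKM in chow, and its adjusted p became 0.0615 without DDC replicate 2 and 0.0521 without preparation CH1_CH2.

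Keratins 8 and 18, the only keratin pair of adult hepatocytes and the scaffold of Mallory-Denk bodies, were far higher on DDC light polysomes. Krt8 had 607 and 1358 FPKM in DDC against 32.0 and 50.3 FPKM in chow (4.46 ± 0.41, limma adjusted p = 1.5e-05), and Krt18 had 527 and 1593 FPKM against 65.9 and 53.6 FPKM (3.93 ± 0.57, limma adjusted p = 0.000301). Tgm2, the transglutaminase that crosslinks keratin 8, had 59.4 and 109 FPKM in DDC against 16.2 and 12.4 FPKM in chow (2.43 ± 0.50, limma adjusted p = 0.00272). Both DDC libraries were above both chow libraries in all 3 genes, as in 35.6% of all tested genes. Sqstm1, which encodes p62, was not called, with 204 and 344 FPKM in DDC and 190.4 and 158 FPKM in chow (0.61 ± 0.31, limma adjusted p = 0.149); it was called after equal-total or quantile scaling. Of the 18 genes listed for keratins and Mallory-Denk bodies 12 were tested, 4 were higher and none lower, with a median of 0.15. The chaperone genes Hspb1, Dnajb1, Bag3, Cryab and Hspb8 lay between -0.59 and 0.11 and were not called.

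Genes of calcium-binding and actin-linked proteins were also mostly higher. Of 20 S100 and annexin genes 16 were tested and 10 were higher, among them S100a6 (66.8 and 38.5 FPKM in DDC, 0.339 and 0.767 FPKM in chow), Anxa5 (246 and 319 FPKM in DDC, 5.94 and 3.91 FPKM in chow) and Anxa2 (59.5 and 227 FPKM in DDC, 2.16 and 1.48 FPKM in chow). The list's median was 1.499, 3 of the tested members were under 1 FPKM in both chow libraries, and 6 were called higher without chow replicate 2. S100a13 alone was lower, at 153.5 and 108 FPKM in DDC against 325 and 268 FPKM in chow; its call was lost without DDC replicate 2 (adjusted p = 0.114), without chow replicate 1 (adjusted p = 0.107) and under both other scalings. Of 46 tested genes for actin, tubulin and actin-binding proteins 29 were higher and 1 was lower, with a median of 1.32. Of the 46, 6 were under 1 FPKM in both chow libraries. Stmn1, the microtubule-destabilising stathmin, had 50.1 and 72.5 FPKM in DDC against 1.67 and 3.74 FPKM in chow (4.11 ± 0.43, limma adjusted p = 3.58e-05). Tuba8, an alpha-tubulin, had 17.5 and 10.2 FPKM in DDC and 0.0635 and 0.0296 FPKM in chow.

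Messages for mitosis were higher on DDC light polysomes, with a summed level of 409 and 513 FPKM in DDC against 162 and 170.4 FPKM in chow. Ube2c, an E2 enzyme that works with the anaphase-promoting complex, had 33.4 and 37.1 FPKM in DDC and 1.57 and 1.80 FPKM in chow (3.75 ± 0.31, limma adjusted p = 8.24e-06). Top2a, the topoisomerase that decatenates chromosomes, had 5.02 and 5.42 FPKM in DDC against 0.0206 and 0.0241 FPKM in chow, and Cdk1, the mitotic kinase, had 10.9 and 12.9 FPKM against 1.123 and 1.943 FPKM. The replicates of each diet were close to each other in Ube2c, Top2a and Cdk1. Mki67, of the fixed set, did not pass the filter. It had 1.55 and 0.378 FPKM in DDC, further apart, and 0.013 and 0.0153 FPKM in chow. Of 45 listed mitosis genes 32 were tested, of which 26 were higher and none lower. Their median was 1.89, and 19 of the 32 were under 1 FPKM in both chow libraries and so passed the filter only through DDC, which leans the count towards rises. The count stayed at 23 or 24 without any single library. Ccnb1, cyclin B1, was at 1.87 and 2.29 FPKM in DDC and at 0 in both chow libraries.

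DNA replication genes moved less evenly, and 5 of the 40 tested were under 1 FPKM in both chow libraries. Rrm2, the small subunit of ribonucleotide reductase, had 11.1 and 12.4 FPKM in DDC against 0.868 and 1.10 FPKM in chow (2.68 ± 0.31, limma adjusted p = 6.75e-05). Pcna, the sliding clamp, was not called at 8.06 and 11.9 FPKM in DDC and 7.20 and 7.55 FPKM in chow. Of 40 tested members 15 were higher and 2 lower (median 0.69); 9 were called higher without chow replicate 1. The 2 lower were Rpa3, whose call was lost without DDC replicate 2 (adjusted p = 0.0646), and Mcm10. Mcm10 had 0.712 and 2.80 FPKM in DDC against 30.8 and 122 FPKM in chow, but only 1.5% of its light polysome FPKM lay on transcripts annotated as protein-coding. Among 19 tested G1 cyclins, kinases and inhibitors 9 were higher, 4 of them without chow replicate 1 and 5 without DDC replicate 2. Cdkn1a, the p21 inhibitor of cyclin-dependent kinases, had 46.7 and 32.9 FPKM in DDC and 1.51 and 1.40 FPKM in chow (4.04 ± 0.41, limma adjusted p = 3.3e-05). Ccnd1, cyclin D1, had 32.7 and 22.3 FPKM in DDC against 13.01 and 4.651 FPKM in chow and missed the threshold (1.65 ± 0.67, limma adjusted p = 0.071). It was called in the fit to the 4 light polysome libraries alone and in 5 of the other alternatives.

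Genes controlled by NRF2, the oxidant- and electrophile-responsive transcription factor that binds antioxidant response elements, rose in part. Of 38 listed NRF2 and glutathione genes 37 were tested, 15 were higher and 3 lower, with a median of 0.76. Of the 37, 4 were under 1 FPKM in both chow libraries. Srxn1, the sulfiredoxin that repairs peroxiredoxins, had 164 and 174 FPKM in DDC against 16.15 and 15.04 FPKM in chow (3.36 ± 0.32, limma adjusted p = 2.1e-05). Gstm1 had 7345 and 9540 FPKM in DDC and 1402 and 1918 FPKM in chow, and Nqo1, the quinone reductase, had 6.85 and 7.35 FPKM against 1.79 and 1.05 FPKM. These genes were higher in both DDC libraries than in both chow libraries, as were 35.6% of all tested genes. The glutathione synthesis subunits were not called: Gclc was at 37.6 and 63.6 FPKM in DDC and 52.4 and 42.7 FPKM in chow, and Gclm at 106 and 140.4 FPKM in DDC and 153 and 137 FPKM in chow. The 3 lower genes were Prdx6, Me1 and Gsta3. Their calls were lost without preparation CH1_CH2, and those of Me1 (adjusted p = 0.0522) and Gsta3 (adjusted p = 0.082) also without chow replicate 1. Only 8.3% of the FPKM of Prdx6 lay on transcripts annotated as protein-coding.

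Promoters were searched for the letters of an antioxidant response element, TGACNNNGC with N any base. The search covered both strands of the 250 bases before the annotated start in RefSeq. The letters occurred in 14.3% of the 14 list members that were higher and had a promoter sequence, in 35.3% of the 17 that were lower or not called, and in 14.2% of all 7639 tested genes with a promoter. The share in higher members was that of all tested genes, so a match does not show a working element. The higher members with a match were Abcc4, the efflux pump (3.85 and 3.19 FPKM in DDC, 0.462 and 0.0399 FPKM in chow), and G6pdx, the first enzyme of the pentose phosphate pathway (4.30 and 5.25 FPKM in DDC, 0.691 and 0.733 FPKM in chow). Both matches are on the complementary strand, in capitals, 25 and 57 bases before the start. The sequences are from GRCm38.p6, minus strand, chr14:118706220-118706264 for Abcc4 and chrX:74428909-74428957 for G6pdx.
Abcc4: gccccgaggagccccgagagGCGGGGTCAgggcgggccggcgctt
G6pdx: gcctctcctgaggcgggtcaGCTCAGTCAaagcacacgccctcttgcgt

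Acute-phase genes, which the liver switches on with inflammation, did not move as a block. Lrg1, a secreted leucine-rich glycoprotein, had 1906 and 5652 FPKM in DDC against 376 and 326 FPKM in chow (3.23 ± 0.45, limma adjusted p = 0.000216). Socs3, the feedback inhibitor of cytokine signalling, had 11.4 and 28.8 FPKM in DDC and 1.07 and 1.88 FPKM in chow. The metallothioneins Mt1 (7299 and 5689 FPKM in DDC, 2282 and 1113 FPKM in chow) and Mt2 (3639 and 2985 FPKM in DDC, 806 and 311 FPKM in chow) were also higher. The serum amyloid genes differed between the DDC replicates rather than between diets: Saa1 had 87.8 and 2664 FPKM in DDC and 121 and 144 FPKM in chow (limma adjusted p = 0.3). Saa2 showed the same split, with 50.5 and 1618 FPKM in DDC and 55.8 and 33.5 FPKM in chow. Of 31 tested acute-phase genes 10 were higher and 2 lower; 6 were higher without DDC replicate 2 or without chow replicate 2, and 15 without DDC replicate 1. The 2 lower genes were Serpina3k, with 531 and 913 FPKM in DDC against 5822 and 5130 FPKM in chow, and Hamp. Serpina3k was listed at 0 in both chow libraries of heavy polysomes and of cytoplasm, so its fall could not be compared there. Hamp, the iron hormone hepcidin, had 24130 and 15800 FPKM in DDC and 52380 and 31710 FPKM in chow, and its call was lost without chow replicate 1 (adjusted p = 0.29).

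Genes of fatty acid oxidation and ketogenesis were lower. Acad11, an acyl-CoA dehydrogenase, had 18.7 and 14.4 FPKM in DDC against 89.9 and 75.5 FPKM in chow (-2.26 ± 0.22, limma adjusted p = 2.19e-05). Cpt2, the inner carnitine palmitoyltransferase, had 15.5 and 29.3 FPKM in DDC and 143 and 99.7 FPKM in chow. Both DDC libraries were below both chow libraries in both genes, as in 36.7% of all tested genes. Of 40 tested members 32 were lower and none higher, with a median of -1.88; 28 to 30 were lower without any single library and 27 without preparation CH1_CH2. Ppara, the nuclear receptor that drives this programme, was at 0.553 and 0.696 FPKM in DDC and 1.67 and 2.38 FPKM in chow (-0.89 ± 0.29, limma adjusted p = 0.031). Acat1, the mitochondrial acetoacetyl-CoA thiolase, had 9.47 and 4.90 FPKM in DDC and 204 and 102 FPKM in chow, with 45.9% of its FPKM on transcripts annotated as protein-coding.

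The nuclear genes of oxidative phosphorylation were mostly lower as well, and no tested mitochondrially encoded one was called. Of 80 tested nuclear genes 58 were lower and none higher, with a median of -1.23 (47 to 55 lower without any single library, 30 without preparation CH1_CH2). Cox6c, a subunit of cytochrome c oxidase, had 664 and 613 FPKM in DDC against 3107 and 2698 FPKM in chow (-2.18 ± 0.27, limma adjusted p = 0.000105). Ndufv2, of complex I, had 68.6 and 54.3 FPKM in DDC and 243 and 249.9 FPKM in chow. Of 13 mitochondrially encoded messages 8 were tested and 4 were listed at 0 in all 4 libraries. The level of these messages in the fraction is not read here as loading with cytosolic ribosomes. None of the 8 was called by limma, 1 had an unadjusted p under 0.05, and their median was 0.05. For example, mt-Nd1 had 4213 and 4604 FPKM in DDC against 2135 and 2878 FPKM in chow (0.83 ± 0.35, limma adjusted p = 0.0858). After equal-total scaling 2 of these 8 were called higher.

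Bile acid genes held 19 lower and 2 higher of 33 tested, with a median of -1.27. Cyp8b1, the sterol 12-alpha-hydroxylase that sets the share of cholic acid, had 0.71 and 0.0994 FPKM in DDC against 67.8 and 88.0 FPKM in chow (-5.83 ± 0.45, limma adjusted p = 4.35e-06). Cyp7a1, the rate-limiting enzyme of bile acid synthesis, had 2.00 and 0.256 FPKM in DDC and 6.60 and 17.4 FPKM in chow (-2.60 ± 0.61, limma adjusted p = 0.00608), a call lost without DDC replicate 2 (adjusted p = 0.0646) or chow replicate 2 (adjusted p = 0.0704). Of the uptake transporters at the blood side, Slc10a1 had 34.7 and 26.3 FPKM in DDC against 296 and 280.4 FPKM in chow, and Slco1b2 had 9.54 and 5.24 FPKM against 61.6 and 96.5 FPKM, both lower. Slc51b, a subunit of an efflux transporter of the same membrane, rose, at 68.7 and 134 FPKM in DDC and 6.26 and 4.31 FPKM in chow (3.96 ± 0.56, limma adjusted p = 0.000241); its partner Slc51a was listed at 0 in all 4 libraries. The canalicular export pump Abcb11 was not called, at 90.5 and 121 FPKM in DDC and 141 and 107 FPKM in chow. Neither were the uptake transporter Slco1a4 (23.7 and 12.9 FPKM in DDC, 14.8 and 13.2 FPKM in chow), the blood-side efflux pump Abcc3 (180.2 and 114 FPKM in DDC, 121 and 101 FPKM in chow) and the synthesis enzyme Akr1d1 (40.8 and 10.4 FPKM in DDC, 52.8 and 32.7 FPKM in chow).

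Among detoxifying enzymes, called genes were more often lower than higher. Cyp2e1, the ethanol-oxidising P450, had 266 and 113 FPKM in DDC against 3559 and 4438 FPKM in chow (-4.51 ± 0.63, limma adjusted p = 0.000237). Cyp2b10, a target of the nuclear receptor CAR, rose to 291 and 163 FPKM in DDC, against 42.0 and 25.3 FPKM in chow (2.70 ± 0.61, limma adjusted p = 0.00487). Sult1e1, the estrogen sulfotransferase, had 45.9 and 22.8 FPKM in DDC and 0.129 and 0.179 FPKM in chow (4.86 ± 0.52, limma adjusted p = 4.18e-05). Cyp3a11 (1047 and 1118 FPKM in DDC, 1134 and 1932 FPKM in chow) and Cyp1a2 (222 and 219 FPKM in DDC, 125 and 270.1 FPKM in chow) were not called. Of 46 tested P450 genes 14 were lower and 2 higher (9 lower without chow replicate 2, 12 lower and 6 higher without preparation CH1_CH2). Among 28 glucuronosyl- and sulfotransferase genes 14 were lower and 1 was higher, and among 13 carboxylesterase genes 9 were lower and 1 was higher, Ces2c, whose call was lost without either chow library (adjusted p = 0.114 and 0.0538) or DDC replicate 2 (adjusted p = 0.112). Members of these families, the major urinary proteins and the glutathione transferases have close copies, so the split of reads within a family is uncertain.

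**Figure D3:**
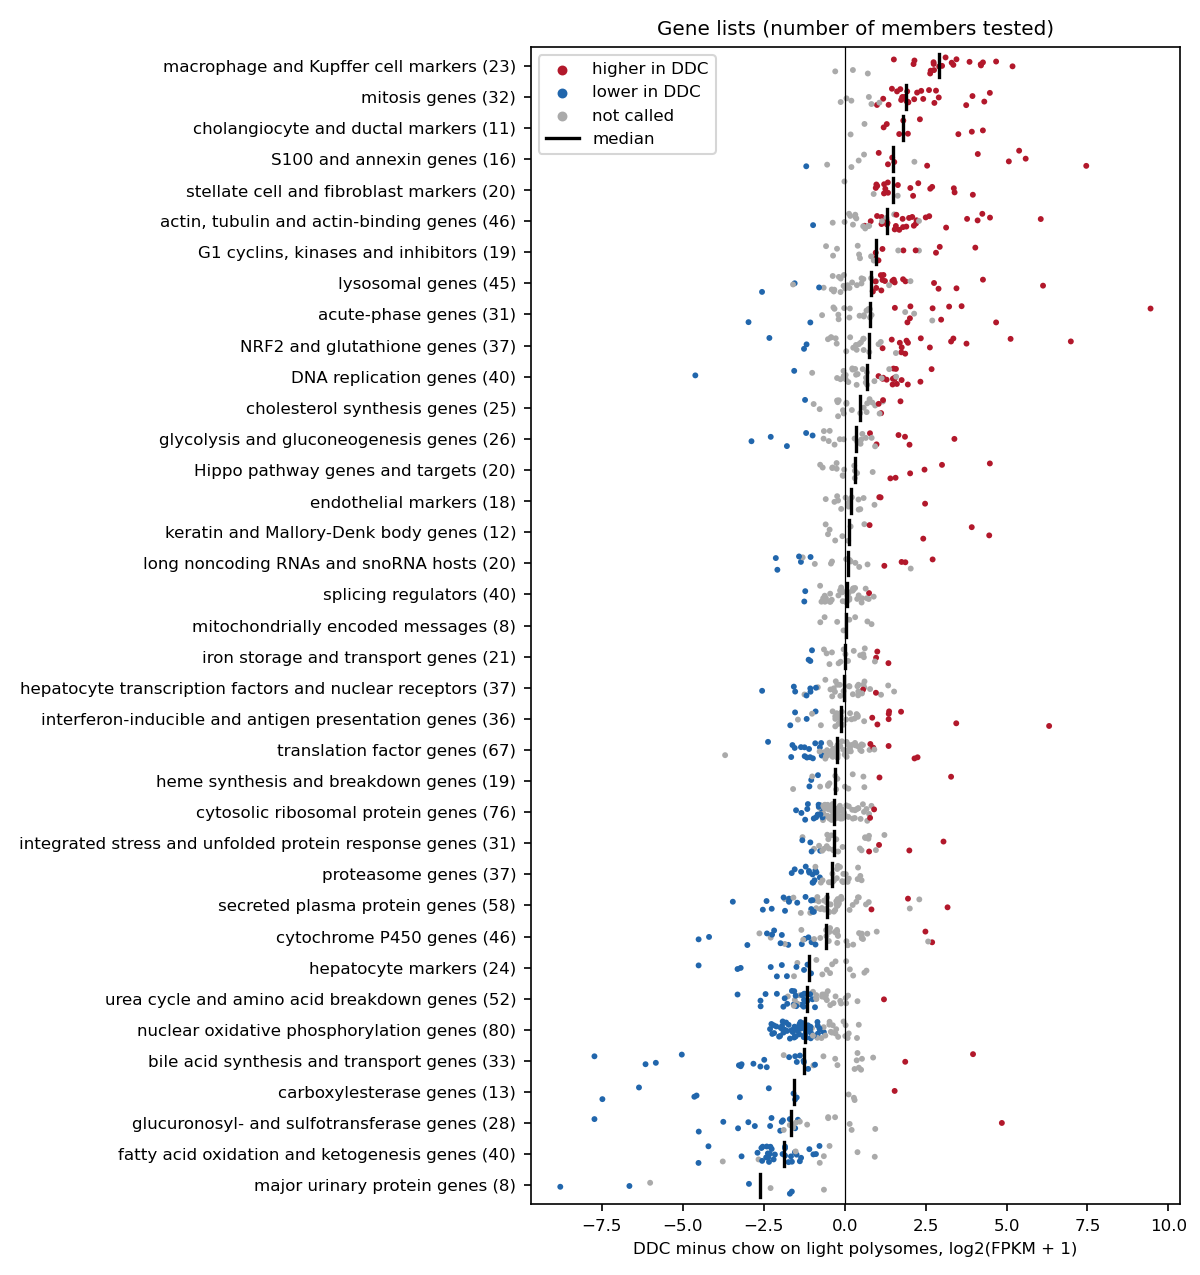
Each point is a tested member of a gene list, placed by DDC minus chow on light polysomes in log2(FPKM + 1); red is called higher, blue called lower, grey not called, and the black bar is the list's median. Macrophage markers have the highest median (2.92) and major urinary proteins the lowest (-2.62), and lists with many members under 1 FPKM in chow lean to the right by the filter.

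Genes of the urea cycle and amino acid breakdown were lower in 25 of 52 cases and higher in 1, with a median of -1.18. Otc, the ornithine transcarbamylase, had 17.4 and 14.7 FPKM in DDC against 112 and 92.7 FPKM in chow (-2.60 ± 0.25, limma adjusted p = 2.32e-05). Cps1, the first enzyme of the cycle, was at 79.2 and 75.1 FPKM in DDC and 76.2 and 73.3 FPKM in chow (limma adjusted p = 0.944), and Ass1 at 1133 and 1183 FPKM in DDC and 1389 and 1428 FPKM in chow (limma adjusted p = 0.431). The higher gene was Sdsl, a serine dehydratase-like enzyme, with 37.0 and 27.5 FPKM in DDC and 15.2 and 11.5 FPKM in chow, a call lost without DDC replicate 1 or chow replicate 2. Of the list 15 were lower without chow replicate 1, 16 without chow replicate 2 and 12 without preparation CH1_CH2. In glucose metabolism Pkm, pyruvate kinase of non-hepatic tissue, had 26.7 and 30.2 FPKM in DDC against 1.83 and 1.78 FPKM in chow (3.39 ± 0.32, limma adjusted p = 1.71e-05). Fbp1, the gluconeogenic bisphosphatase, had 56.6 and 196 FPKM in DDC and 878 and 699 FPKM in chow. Over all tested genes 18.7% were called higher and 16.7% lower. The 26 tested glycolysis and gluconeogenesis genes held 6 higher and 5 lower (3 and 2 without chow replicate 2).

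Heme synthesis, the pathway that DDC blocks, and the iron list held a few calls in both directions. In the main fit both lists stayed under the shares of all tested genes, 18.7% higher and 16.7% lower. Alas1, the rate-limiting enzyme of heme synthesis, had 175 and 132 FPKM in DDC and 145 and 158 FPKM in chow (0.01 ± 0.41, limma adjusted p = 0.992), with 19.6% of its FPKM on transcripts annotated as protein-coding. Fech, ferrochelatase, was lower at 21.7 and 17.2 FPKM in DDC against 38.1 and 47.2 FPKM in chow (-1.09 ± 0.28, limma adjusted p = 0.00912), a call lost without DDC replicate 2 (adjusted p = 0.0635) or chow replicate 2 (adjusted p = 0.0781) and with equal totals. Hmox1, the heme oxygenase, was higher at 60.5 and 124 FPKM in DDC against 10.2 and 6.19 FPKM in chow (3.29 ± 0.51, limma adjusted p = 0.000503). Of 19 tested genes of heme synthesis and breakdown 2 were higher and 3 lower (1 and 0 without chow replicate 2, 4 and 0 with equal totals, 4 and 4 with quantile normalization). The iron list of 21 tested genes held 3 higher and 3 lower (1 higher without chow replicate 1 or DDC replicate 2); the ferritin genes Fth1 (4206 and 6945 FPKM in DDC, 3162 and 2533 FPKM in chow) and Ftl1 (4630 and 7457 FPKM in DDC, 6485 and 5571 FPKM in chow) were not called.

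Stress-response and transcription factor lists held calls in both directions, beside 18.7% higher and 16.7% lower over all tested genes. In the main fit the stress-response list stayed under both shares. Atf4, the effector of the integrated stress response, was at 50.6 and 76.2 FPKM in DDC and 91.4 and 90.0 FPKM in chow (-0.54 ± 0.26, limma adjusted p = 0.13). Its relative Atf3 was higher, at 12.1 and 15.9 FPKM in DDC against 1.54 and 0.269 FPKM in chow (3.05 ± 0.44, limma adjusted p = 0.000284). Of 31 tested stress-response genes 4 were higher and 4 lower (8 and 1 with equal totals, 2 and 2 without chow replicate 1). Among 37 hepatocyte transcription factors and nuclear receptors, Nr1h4, the bile acid receptor FXR, was lower at 11.6 and 11.8 FPKM in DDC against 37.0 and 34.3 FPKM in chow (-1.53 ± 0.23, limma adjusted p = 0.000386). Hnf4a was not called, at 62.8 and 41.1 FPKM in DDC and 28.7 and 37.9 FPKM in chow. That list held 2 higher and 7 lower genes (9 and 4 with equal totals, 1 and 4 without chow replicate 1). Of 20 tested Hippo pathway genes and targets 6 were higher, such as Axl and Ccn1, and none was lower. Of the 20, 4 were under 1 FPKM in both chow libraries, Axl among them. These passed the filter only through DDC, which leans the count towards rises. Ccn1, a YAP target, had 11.1 and 16.9 FPKM in DDC and 1.65 and 1.68 FPKM in chow. Cholesterol synthesis held 4 higher genes of 25 tested (1 without chow replicate 2, 2 without DDC replicate 2) and 1 lower.

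Most tested markers of macrophages, ductal cells and stellate cells were called higher in DDC, although the labelled cell type is hepatocytes. Of the macrophage markers 28 were listed, 23 tested, 20 higher and none lower, with a median of 2.92. Of the 23, 4 were under 1 FPKM in both chow libraries. The summed level was 2156 and 3154 FPKM in DDC against 392 and 230.2 FPKM in chow. Lyz2, lysozyme, had 413 and 702 FPKM in DDC and 38.8 and 20.3 FPKM in chow. Clec4f, a defining gene of resident Kupffer cells, had 79.8 and 162 FPKM in DDC and 50.2 and 30.4 FPKM in chow. Gpnmb had 64.3 and 19.9 FPKM in DDC against 0.0296 and 0 FPKM in chow. Adgre1, Cd74 and Timd4 (2.01 and 2.85 FPKM in DDC, 2.51 and 1.32 FPKM in chow) were not called. Cd68 (128 and 117 FPKM in DDC, 6.47 and 4.47 FPKM in chow) is in the macrophage and lysosomal lists, and of 45 tested lysosomal genes 18 were higher and 3 lower (11 higher without preparation CH1_CH2). Only 35.9% of the light polysome FPKM of Cd68 lay on transcripts annotated as protein-coding. The part of macrophages in the rises of Mmp12, Lgals3, Cd63 and the lysosomal genes was not tested. Interferon-inducible and antigen presentation genes held 8 higher and 4 lower of 36 tested, with 3 higher without chow replicate 2 or DDC replicate 2. The shares over all tested genes were 18.7% higher and 16.7% lower. Ly6e, an interferon-inducible surface protein, had 1265 and 3296 FPKM in DDC against 222 and 157 FPKM in chow, and Iigp1, an interferon-inducible GTPase, had 16.9 and 8.04 FPKM in DDC against 39.4 and 40.2 FPKM in chow.

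Of 26 ductal markers 11 were tested, 9 higher and none lower (6 without preparation CH1_CH2), 7 of the 11 being under 1 FPKM in both chow libraries; the summed level was 417 and 926 FPKM in DDC and 55.5 and 40.4 FPKM in chow. Sprr1a, listed at 0 in chow and so not tested, supplied 188 and 534 FPKM of that sum. The 7 ductal markers under 1 FPKM in chow passed the filter only through DDC, which leans their count towards rises. The defining markers were low: Krt19 was at 0.395 and 0.585 FPKM in DDC and 0 in both chow libraries, Epcam at 0.974 and 0.703 FPKM and 0, and Krt7 at 0 and 0.222 FPKM and 0, while Cftr and Sctr were at 0 in all 4 libraries. Sox9, a transcription factor of ductal and reactive hepatocytes, had 2.659 and 2.174 FPKM in DDC and 0.0592 and 0.0616 FPKM in chow (1.68 ± 0.21, limma adjusted p = 0.000101). Spp1, osteopontin, had 8.77 and 60.3 FPKM in DDC and 0.683 and 0.535 FPKM in chow (3.93 ± 0.89, limma adjusted p = 0.00569), a call lost without DDC replicate 2 (adjusted p = 0.0581) or preparation CH1_CH2 (adjusted p = 0.0607). Fetal liver and progenitor genes, 6 tested of 18, were all higher, with 5 of the 6 under 1 FPKM in both chow libraries and 4 called without DDC replicate 2 or chow replicate 2. Those 5 genes passed the filter only through DDC, which leans the count towards rises. Prom1, a progenitor surface protein, had 15.2 and 40.0 FPKM in DDC and 0.787 and 0 FPKM in chow. Of 31 stellate cell and fibroblast markers 20 were tested and 17 were higher (11 without preparation CH1_CH2), with 12 under 1 FPKM in both chow libraries; summed levels were 236 and 272 FPKM in DDC and 82.0 and 78.5 FPKM in chow. The 12 stellate cell and fibroblast markers under 1 FPKM in chow also passed the filter only through DDC. Vim had 20.5 and 14.6 FPKM in DDC and 0.768 and 0.771 FPKM in chow, while Lrat (0.5 and 0.309 FPKM in DDC, 0.155 and 0.129 FPKM in chow) and Acta2 (0.112 and 0.416 FPKM in DDC, 0 in chow) stayed below the filter.

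Endothelial markers stood at 171 and 188 FPKM in sum in DDC and 132 and 114 FPKM in chow, with 3 of 18 higher (1 without chow replicate 2). Neutrophil markers summed to 2754 and 14050 FPKM in DDC and 325 and 135 FPKM in chow; Lcn2 made up nearly all of the DDC sums, and G0s2, also expressed in liver, most of the chow sums (28.8 and 74.6 FPKM in DDC, 299.3 and 129.4 FPKM in chow); 4 of 17 were tested, 2 were higher and 1 lower, and Ly6g was at 0 in all 4 libraries. Lymphocyte markers summed to 25.3 and 41.2 FPKM in DDC and 17.0 and 12.8 FPKM in chow, with 4 of 25 tested and 3 higher (0 without DDC replicate 2 or chow replicate 2), and red blood cell markers to 43.9 and 140 FPKM in DDC and 53.5 and 66.5 FPKM in chow, with 4 tested, none called by limma and 0 at an unadjusted p under 0.05. Hepatocyte markers held 11 lower genes and none higher of 24 tested (7 lower without chow replicate 2), with summed levels of 42810 and 50760 FPKM in DDC and 26290 and 27590 FPKM in chow. Those sums are set by genes listed at 0 in 1 diet, described next, and Alb was listed at 0 in all 4 libraries. Asgr1, the asialoglycoprotein receptor, was at 252 and 456 FPKM in DDC and 557 and 444 FPKM in chow and was not called. The counts of these marker lists stand beside 18.7% higher and 16.7% lower over all tested genes.

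Several abundant plasma protein genes were listed at 0 in both libraries of 1 diet while abundant in the other, and were therefore not tested. Apoe was listed at 0 in DDC and stood at 12990 and 9374 FPKM in chow, Apoa1 at 0 in DDC and 10850 and 10980 FPKM in chow, and Ahsg, Hpx, Hp and C3 were listed in the same way. The reverse held for Apoa2, with 29880 and 33600 FPKM in DDC and 0 in both chow libraries, for Apoc1, with 24150 and 24880 FPKM in DDC and 0 in chow, and for Serpina1a and Serpina1c. Apoa2 was at 38005 and 33598 FPKM in chow monosomes, prepared from the same material, so a 0 on chow light polysomes cannot be read as a missing message. Among plasma protein genes with values, 58 were tested, 16 were lower and 3 higher; 10 were lower without chow replicate 1 and 8 without DDC replicate 1. Pon1, paraoxonase, had 69.3 and 53.5 FPKM in DDC against 842 and 547 FPKM in chow (-3.46 ± 0.47, limma adjusted p = 0.000181). Apoc2, the cofactor of lipoprotein lipase, was higher at 3786 and 10350 FPKM in DDC and 1615 and 1611 FPKM in chow (1.96 ± 0.42, limma adjusted p = 0.00355), a call lost without preparation CH1_CH2 (adjusted p = 0.0774). The major urinary protein genes summed to 23.3 and 262 FPKM in DDC against 8963 and 29950 FPKM in chow. Of the 21 genes 8 were tested and 5 were lower, since abundant members such as Mup10 (2055 and 3234 FPKM in chow), Mup9 (1630 and 2560 FPKM in chow) and Mup17 (404 and 1852 FPKM in chow) were listed at 0 in DDC and left out; 2 were lower without chow replicate 2 or either DDC library and 7 without preparation CH1_CH2.

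Genes of the translation machinery had medians nearer to that of all genes. Their counts stand beside 18.7% higher and 16.7% lower over all tested genes. Ribosomal protein genes, whose messages open with a pyrimidine tract that couples them to growth signalling, had a median of -0.32, with 2 of 76 higher and 14 lower. That median was 0.01 after equal-total scaling, against 0.23 for all genes, and the counts rested on single libraries: 4 were lower without chow replicate 1, 2 without chow replicate 2, 3 (with 7 higher) without DDC replicate 1 and 28 without DDC replicate 2. Rpl10 had 409 and 555 FPKM in DDC against 1296 and 1120 FPKM in chow (-1.34 ± 0.23, limma adjusted p = 0.00105, and 0.0659 without preparation CH1_CH2). Rplp0 had 413 and 588 FPKM in DDC and 245 and 280.5 FPKM in chow, and its call was lost without DDC replicate 2 or chow replicate 1. In the other pools the median of these 76 genes was -1.40 on monosomes, 0.23 on heavy polysomes and -0.01 in cytoplasm, and 14 of the 76 had a higher diet difference on light than on heavy polysomes. The pools share preparations, and no test was made over the list.

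The start of these messages is shown for the named higher members Rplp0 and Rpl35 and the named lower members Rpl10 and Rpl35a. Rpl35 (540 and 744 FPKM in DDC, 343 and 394 FPKM in chow, 0.78 ± 0.23) was higher and Rpl35a (102 and 188 FPKM in DDC, 315 and 495 FPKM in chow, -1.50 ± 0.38) lower. Capitals mark the unbroken run of C and T that covers the annotated start, which is the sixteenth base. The sequences are from RefSeq, GRCm38.p6, at chr5:115559452-115559481 (plus strand) for Rplp0, chr2:39005117-39005146 (minus strand) for Rpl35, chrX:74270801-74270830 (plus strand) for Rpl10 and chr16:33056467-33056496 (plus strand) for Rpl35a.
Rplp0: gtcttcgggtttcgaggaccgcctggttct
Rpl35: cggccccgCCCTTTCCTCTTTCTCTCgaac
Rpl10: gttgttacagtggaagataggccgcctata
Rpl35a: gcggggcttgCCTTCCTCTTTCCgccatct
The runs are 18 bases in Rpl35 and 13 in Rpl35a, and none covers the annotated start of Rplp0 or Rpl10, so 1 member of each direction has a run there. Only a run over the annotated base was counted, so a start annotated a few bases off would hide a tract. A missing run therefore does not show that a message lacks the tract. A run of at least 6 bases covered the start in 33.9% of 56 ribosomal protein genes with a promoter sequence and in 8.57% of all 7639 tested genes with one. It was present in 4 of the 11 lower members and 14 of the 43 that were not called. The calls of Rpl35 and Rpl35a depended on single libraries: Rpl35 was lost without chow replicate 1, chow replicate 2 or DDC replicate 2, and Rpl35a without DDC replicate 1 or chow replicate 2. Reads of Rpl35 may include some of Arpc5l, which overlaps it on the opposite strand, and only 55.1% of its FPKM lay on protein-coding transcripts.

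Among 67 tested translation factors 5 were higher and 15 lower (1 and 9 without chow replicate 1, 1 and 10 without chow replicate 2), with a median of -0.23 that became 0.08 after equal-total scaling. Among all tested genes 18.7% were higher and 16.7% lower. Eif6, which keeps the large ribosomal subunit from joining too early, had 218 and 238 FPKM in DDC against 45.4 and 48.7 FPKM in chow (2.25 ± 0.24, limma adjusted p = 4.21e-05). Eif4a2, a helicase of the cap-binding complex, had 12.3 and 13.4 FPKM in DDC and 77.8 and 63.8 FPKM in chow (-2.37 ± 0.34, limma adjusted p = 0.000305), with 36.4% of its FPKM on protein-coding transcripts. Of 37 tested proteasome genes 13 were lower and none higher (7 lower without chow replicate 1 or DDC replicate 1), and with equal totals 4 were higher and 7 lower. Splicing regulators were close to level, with 1 of 40 higher and 2 lower (0 and 0 without chow replicate 2 or DDC replicate 1, 4 and 0 with equal totals).

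**Figure D4:**
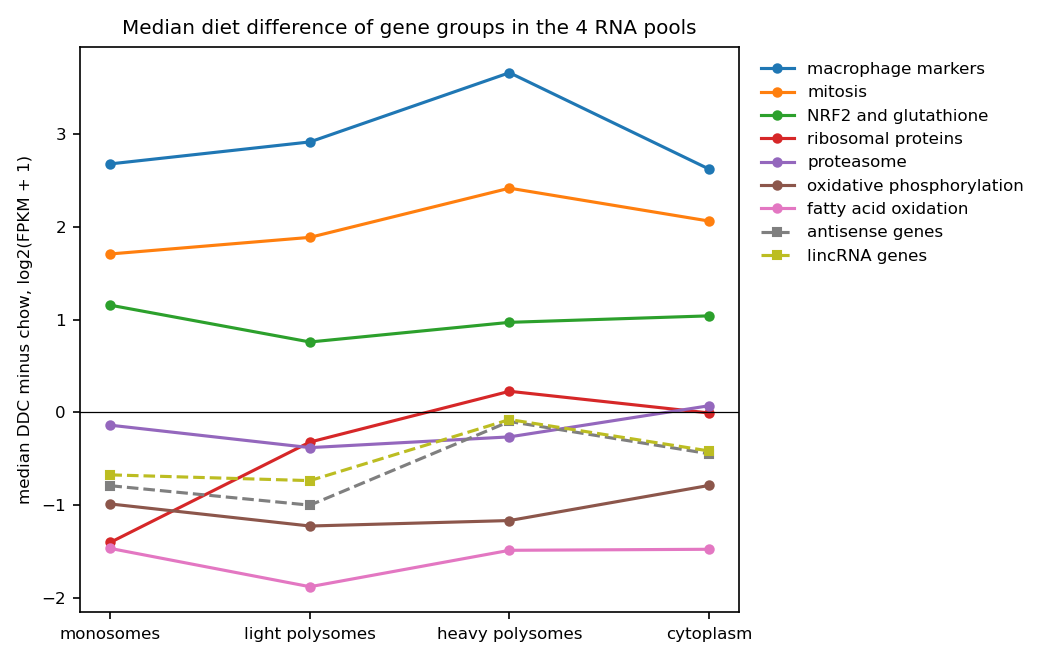
Median diet difference (DDC minus chow, log2(FPKM + 1)) of gene groups on monosomes, light polysomes, heavy polysomes and in cytoplasm. Ribosomal protein genes run from -1.40 on monosomes through -0.32 on light to 0.23 on heavy polysomes, and antisense and lincRNA genes are at -1.001 and -0.74 on light polysomes and at -0.10 and -0.08 on heavy polysomes.

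Among long noncoding RNAs, more genes were called lower than higher. Of 129 tested antisense genes 48 were lower and 9 higher, with a median of -1.001 and a summed level of 681 and 663 FPKM in DDC against 1736 and 2082 FPKM in chow. Of 100 lincRNA genes 35 were lower and 12 higher (median -0.74), and of 72 processed transcript genes 32 were lower and 6 higher (median -0.83). Protein-coding genes, 9266 in number, had 1471 lower and 1795 higher and a median of 0.00. Lower calls thus made up 37.2% of antisense, 35.0% of lincRNA, 44.4% of processed transcript and 15.9% of protein-coding genes; this difference was not tested. Without chow replicate 2 the shares were 22.5%, 17.0%, 27.8% and 9.37%. Without the filter on low values, which brings in many genes near 0, they were 8.27%, 8.19%, 10.1% and 8.49%. On heavy polysomes the medians were -0.10 for antisense and -0.08 for lincRNA genes, on monosomes -0.79 and -0.67, and in cytoplasm -0.45 and -0.42. The 20 tested members of a list of known long noncoding RNAs and snoRNA hosts held 4 higher and 5 lower (3 and 2 without chow replicate 1 or DDC replicate 1). Gas5, a snoRNA host, had 17.2 and 28.2 FPKM in DDC against 53.2 and 63.0 FPKM in chow (-1.35 ± 0.28, limma adjusted p = 0.00277), and its difference on heavy polysomes was 0.04. Jpx, an activator of Xist, had 0.0598 and 0.249 FPKM in DDC and 3.40 and 4.38 FPKM in chow (-2.08 ± 0.43, limma adjusted p = 0.0028), against a heavy polysome difference of 0.26. That difference lies near the floor, with 0 and 0.805 FPKM in DDC and 0.26 and 0 FPKM in chow on heavy polysomes. In cytoplasm Jpx had 0.188 and 0.142 FPKM in DDC and 1.39 and 2.16 FPKM in chow. The light minus heavy contrast had unadjusted limma p-values of 0.00381 for Gas5 and 0.00212 for Jpx and adjusted ones of 0.296 and 0.274, so neither was called. Antisense genes share bases with a partner on the other strand, and whether strand was used in counting is not given in the sources used here.

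Diet differences also followed coding length, by the longest annotated coding sequence. The 769 genes under 150 residues had a median of -0.31, with 18.1% higher and 28.3% lower, and the 2526 genes of 600 residues or more had a median of 0.11, with 20.8% higher and 10.6% lower. The bins between had medians of -0.07 (2208 genes from 150 to below 300 residues) and 0.00 (3754 genes from 300 to below 600 residues). Genes under 150 residues held 35.9% and 34.4% of the coding FPKM in DDC and 43.4% and 40.3% in chow. Heavy polysomes showed nearly the same medians, -0.28 in the shortest and 0.08 in the longest bin. Genes are not replicates and no test was made across bins.

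**Figure D5:**
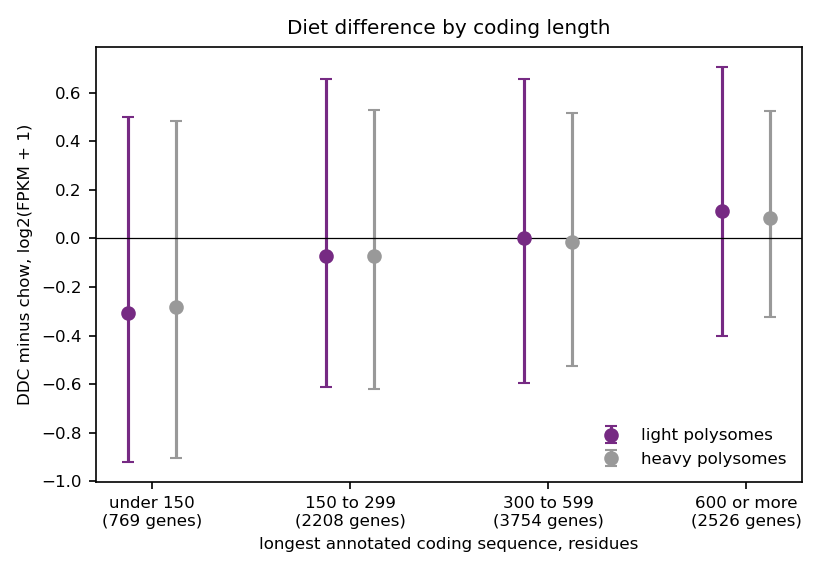
Median (point) and quartiles (bars) of DDC minus chow in log2(FPKM + 1) for genes in 4 bins of coding length, on light polysomes (purple) and heavy polysomes (grey). The light polysome median is -0.31 under 150 residues and 0.11 at 600 residues or more, close to -0.28 and 0.08 on heavy polysomes.

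Diet differences on light polysomes were set against those of the other pools gene by gene. The contrast of light minus heavy polysomes called 2 of 9837 genes (0.0203%) by limma, that of light polysomes minus monosomes 1 of 9838 (0.0102%), and that of light polysomes minus cytoplasm 5 of 9839 (0.0508%). An unadjusted p under 0.05 was reached by 1158, 752 and 864 genes. Without any single light polysome library, the contrast with cytoplasm called 0 genes, and without either chow library or DDC replicate 1 that with monosomes called 0. Dsg2, the desmosomal cadherin of epithelia, had 5.49 and 6.84 FPKM on light polysomes in DDC and was listed at 0 in both chow libraries, but 1.42 and 3.47 FPKM in DDC and 5.32 and 7.73 FPKM in chow on heavy polysomes. Its light minus heavy difference was 4.01 (limma adjusted p = 0.00206). Chow libraries held 6.98 and 8.28 FPKM of Dsg2 on monosomes and 9.11 and 8.01 FPKM in cytoplasm, so the 0 on chow light polysomes may be a failed estimate and the difference rests on it. H19, the imprinted fetal liver RNA, had 2.78 and 2.56 FPKM in DDC and 0 in both chow libraries on light polysomes, and 36.6 and 22.5 FPKM in DDC and 0.0278 and 0.0347 FPKM in chow in cytoplasm. Its diet difference was 1.87 on light polysomes and 4.85 in cytoplasm, a gap of -2.98 (limma adjusted p = 0.0498). The light polysome libraries share their preparations with the monosome and heavy polysome libraries, and chow cytoplasm came from CH1 and CH3, names that these preparations contain. The contrasts treat all as independent; with preparation as a random effect they called 5, 8 and 5 genes.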

How the data were processed

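Poly(A) RNA of 16 mouse hepatocyte libraries was sequenced after a stranded library preparation, per the labels' protocols. Cuffnorm, Trimmomatic, STAR 2.4.2a and Picard 1.119 appear in the submitters' processing notes, as does the build GRCm38/mm10. The deposited values are FPKM per transcript, which the authors scaled between libraries with Cuffnorm; they are not counts, so no count model was used and sequenced depth is unknown.

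Of 117592 transcripts 116728 (99.29%) matched GENCODE M21 on GRCm38, and FPKM were summed over 48158 genes. Genes with at least 1 FPKM in 2 light polysome libraries were kept. A gene at 0 in both libraries of some group, but reaching 100 FPKM in another library, was treated as missing there. limma 3.58.1 in R 4.3.3 was fitted to log2(FPKM + 1) with 8 group means over 16 libraries and a variance trend (8 residual and 4.381 prior degrees of freedom). Tests are two-sided with Benjamini-Hochberg adjustment over all tested genes. The procedure was checked on simulated data with independent noise in each library. That check does not cover preparations shared between pools. Named genes are the 15 largest rises and falls without overlap between diets (mean of either group 50 FPKM or above, predicted genes left out), a fixed set, and up to 4 genes of lowest p per list and direction. The further list members Anxa2, Hspb1, Dnajb1, Bag3, Cryab, Hspb8, Top2a, Cdk1, Pcna, Gstm1, Nqo1, Gclc, Gclm, G6pdx, Mt1, Mt2, Saa1, Saa2, Cpt2, Ppara, mt-Nd1, Slco1b2, Slc51a, Slco1a4, Abcc3, Akr1d1, Abcb11, Cyp3a11, Cyp1a2, Cps1, Ass1, Fth1, Ftl1, Hnf4a, Clec4f, Timd4, Gpnmb, Epcam, Krt7, Cftr, Sctr, Ly6g, Vim, Lrat, Acta2 and Asgr1, and the interaction genes Dsg2, Gm21286, Gm28437 and 1700003F12Rik, were added after their values were seen. The comparison, the members and all 41 gene lists were chosen with earlier results of these data known.

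The alternatives were pseudocount, filter, scaling, variance trend, libraries in the fit, replicate block, preparation as a random effect and leaving out libraries.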

Additional observations from a re-analysis of the deposited data

Results flagged for a closer look

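Diet differences on light polysomes that departed from another RNA pool by a limma interaction contrast (adjusted p under 0.05) concerned 7 genes. Against heavy polysomes, Gm21286 differed by -5.43 (adjusted p = 8.84e-07), with 0 in both DDC libraries and 47.2 and 37.8 FPKM in chow on light polysomes and 0 in all 4 heavy polysome libraries, and Dsg2 differed by 4.01 (adjusted p = 0.00206), a value that rests on its listing at 0 on chow light polysomes. The value of Gm21286 rests on its listing at 0 on chow heavy polysomes, while chow monosomes held 72.0 and 73.4 FPKM. Against monosomes, Ugt3a1 differed by -2.30 (adjusted p = 0.0249): its diet difference was -3.29 on light polysomes and -0.997 on monosomes, where the chow libraries held 1.48 and 1.21 FPKM.

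Against cytoplasm, Gm21286 differed by -1.80, Serpina12 by -2.07, 1700003F12Rik by 2.06, Gm28437 by 2.85 and H19 by -2.98, each with an adjusted p of 0.0498, at the edge of the threshold. Serpina12 had 0.39 and 0.138 FPKM in DDC and 18.5 and 13.9 FPKM in chow in cytoplasm, against 0.976 and 0.864 FPKM in DDC and 113 and 103 FPKM in chow on light polysomes. The gene 1700003F12Rik had 5.56 and 5.36 FPKM in DDC and 0 and 0.0667 FPKM in chow on light polysomes. Gm28437 was at 5.85 and 6.62 FPKM in DDC and 0 in chow on light polysomes and at 0 in all 4 cytoplasmic libraries. Chow heavy polysomes held 5.21 and 3.24 FPKM of Gm28437, so its difference rests on listings at 0 that may be failed estimates.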

How the results depend on the processing

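All 3487 called genes kept their direction under each of the 16 alternatives that gave them a value, and 1864 to 3487 also stayed called. Main counts were 1846 higher and 1641 lower, and 2, 1 and 5 for light minus heavy, minus monosome and minus cytoplasm. Higher genes fell to 963 with a mean of at least 5 FPKM, where fewer genes were tested, and lower genes to 1020 with equal totals (2526 higher). Leaving out 1 light polysome library gave 1142 to 1456 higher, 955 to 1275 lower, and 2 to 3, 0 to 4 and 0 for the contrasts in the same order. Without preparation CH1_CH2 the counts were 1132, 868, 6, 1 and 0. The contrasts called 6, 3 and 2 genes with a pseudocount of 0.1, 16, 26 and 18 without a filter, 1, 0 and 0 with a mean of at least 5 FPKM, 4, 3 and 2 with equal totals, 3, 4 and 3 with quantile normalization, 15, 10 and 14 with genes listed at 0 tested, and 5, 8 and 5 with preparation as a random effect. Their cause was not tested.

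With the replicate number as a block the fit to 16 libraries called 1952 higher and 1752 lower, with 4, 3 and 0 in the contrasts, and the fit to 4 libraries 1850 and 1495. The numbers do not pair the diets: deviations of same-numbered DDC and chow light polysome libraries had a correlation of -0.025. Of 222 tested named genes, 163 to 222 kept their call per setting, fewest without preparation CH1_CH2. With 2 libraries a group and unknown depth, small differences of low genes were not detectable.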
